A study of Homo sapiens with 44 samples.

Results

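The genes described here are 35 genes of the amino acid stress response and of the loading of transfer RNAs, chosen by symbol from the 40663 symbols of a count table of intestinal stromal cells. They comprise 8 stress regulators, 2 stress genes for a secreted protein and a receptor (STC2 and VLDLR), 9 enzymes of amino acid and one-carbon synthesis and 16 cytosolic aminoacyl-tRNA synthetases. All 35 were listed in the table and 33 were among the 9513 genes with enough counts to be tested. SHMT1, with at most 12 counts in a library, and VARS1, with at most 9, were not tested.

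Bulk RNA-seq was made from Ccd-18Co, a fibroblast line from human colon, which was kept without serum for 72 h and then cultured for 24 h unstimulated or with 1 cytokine. The cytokines were IFNα, IFNγ, TNF, TGF-β1, oncostatin M (OSM), IL-22, IL-17A, IL-13 and IL-6 at 10 ng/ml and IL-1β at 0.1 ng/ml. There were 4 replicates in each of 11 groups, 44 libraries in all, with 742173 to 2213424 counts each. All groups were thus 1 cell line, kept without serum and examined at 1 dose and 1 time. The labels do not say whether replicates were separate cultures, so p-values measure the spread between these libraries, which may be technical.

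Of 11 fibroblast markers, 11 were detected at a median over 1 CPM (counts scaled to a common library size), and their summed level was 18400 to 54000 CPM per library. The 6 epithelial markers summed to 0 to 26.6 CPM, the 6 immune markers to 0 to 73.8 CPM and the 4 endothelial markers to 0 to 2.65 CPM, while the 4 smooth muscle markers reached 225 to 1140 CPM. In bulk RNA, fewer cells that express a gene and less of its RNA per cell cannot be told apart.

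Cells that lack an amino acid, or whose endoplasmic reticulum is stressed, phosphorylate the translation factor eIF2, which lowers protein synthesis as a whole but raises the translation of the transcription factor ATF4. ATF4, with C/EBP partners, is known to switch on enzymes that make serine, glycine and asparagine, amino acid transporters, and many cytosolic synthetases, which join each amino acid to its transfer RNA. Because ATF4 is controlled largely at translation, its mRNA level is not a measure of the protein. In fibroblasts this programme is known for supplying the glycine that collagen synthesis needs.

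Many ATF4 target genes carry a composite C/EBP-ATF element near the start of transcription. The letters TGATGNAA, or their reverse complement TTNCATCA, were searched in RefSeq promoters (GRCh38.p14) that run from 250 bases before to 50 bases after each start. Of the 35 genes, 28 had a promoter in the set and 11 of these 28 (39.3%) held the letters, against 4.46% of 27305 gene symbols. Among the synthetases it was 7 of 13, among the enzymes 2 of 6 and among the stress regulators 2 of 7. The promoters of ATF4, DDIT3, TRIB3, DDIT4, SESN2, VLDLR, STC2, PSAT1, PHGDH, SHMT1 and MTHFD2 did not hold these letters. Nor did those of the synthetases EPRS1, HARS1, KARS1, QARS1, RARS1 and SARS1. Promoters of NUPR1, PSPH, SHMT2, ALDH1L2, LARS1, VARS1 and YARS1 were not examined. AARS1, CARS1, MARS1, CHAC1 and MTHFD1L also held the letters, but their windows are not shown. The following windows of 30 bases belong to members named by the rule given under data processing. Each is written 5′ to 3′ on the strand of its gene, with the element in capitals.
ASNS, minus strand, chr7:97872458-97872487: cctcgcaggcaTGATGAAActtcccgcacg
CEBPG, plus strand, chr19:33374060-33374089: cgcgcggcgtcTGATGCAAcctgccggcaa
GARS1, plus strand, chr7:30594834-30594863: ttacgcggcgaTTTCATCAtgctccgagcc
IARS1, minus strand, chr9:92293692-92293721: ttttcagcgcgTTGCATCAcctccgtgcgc
NARS1, minus strand, chr18:57621804-57621833: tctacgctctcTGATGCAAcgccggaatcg
TARS1, plus strand, chr5:33440956-33440985: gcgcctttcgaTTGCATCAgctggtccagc
Counted from the start of transcription, with upstream bases negative, the element lay at -68 to -61 in ASNS, -42 to -35 in CEBPG, -33 to -26 in GARS1, -13 to -6 in IARS1, 3 to 10 in TARS1 and 15 to 22 in NARS1. A match of letters is a description of the sequence and does not show that a factor was bound in these cells.

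Levels below are CPM on normalized library sizes, and differences are log2 fold changes ± SE with 4 libraries in each group. The quasi-likelihood test of edgeR gave the p-values, which were adjusted over all 9513 genes tested by the Benjamini-Hochberg method, and genes with an adjusted p under 0.05 are described as called. The 10 comparisons with unstimulated cells share the same 4 unstimulated libraries. In a test for any difference among the 11 groups, 26 of 33 members were called, against 35.7% of all genes tested. They were 6 of 8 stress regulators, STC2 and VLDLR, 7 of 8 enzymes and 11 of 15 synthetases, and the members not called were SESN2, CHAC1, MTHFD1L, HARS1, QARS1, RARS1 and YARS1.

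The members were mainly lower after the inflammatory cytokines. With TNF 16 of 33 were lower and 0 higher, against 6.09% of all genes lower and 5.37% higher. With IL-1β 14 were lower and 0 higher, against 3.92% and 3.46% of all genes. With IL-17A, a cytokine that moved few genes here (0.925% lower and 0.599% higher), 6 members were lower and 0 higher. The lower members were 48.5%, 42.4% and 18.2% of those tested with TNF, IL-1β and IL-17A, in each case above the share of all genes called lower. The members were chosen with earlier results of these data known. Shares of members set beside those of all genes, here and throughout, are therefore a description and not a test.

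Both interferons also lowered members. With IFNα 9 of 33 were lower and 0 higher, against 4.86% of all genes lower and 4.99% higher. With IFNγ 9 were lower, against 5.13%, and 1, KARS1, was higher, against 5.52%. TGF-β1 lowered 2 members, PSAT1 and STC2, and raised 0, against 3.08% of all genes lower and 2.61% higher. Without IFNγ replicate 3 or 4 the members called with IFNγ numbered 5 or 6. Without unstimulated replicate 1 or 2 or TGF-β1 replicate 4 those called with TGF-β1 numbered 0, and without TGF-β1 replicate 3 the number was 1.

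With IL-13 the called members lay in the other direction, with 4 higher and 0 lower, against 1.53% of all genes higher and 2.4% lower. OSM raised 1 member, VLDLR, and lowered 0, against 1.42% of all genes higher and 2.54% lower. With IL-22 0 members were called, and 0% of all genes in either direction, and DESeq2's Wald test called 0 of the members but gave no adjusted p for 19 of the 33. At an unadjusted p under 0.05, 2 members were higher and 5 lower with IL-22. With IL-6 0 members were called by edgeR or DESeq2, against 0.0105% of all genes higher and 0% lower, and 2 members were higher and 0 lower at an unadjusted p under 0.05. The share of all genes was not counted at the unadjusted threshold, so these IL-22 and IL-6 counts cannot show an excess of members. When unstimulated replicate 4 was left out, IL-13 had 1 member called and OSM 0. OSM also had 0 without OSM replicate 2, and it had 3 without unstimulated replicate 1.

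**Figure D1:**
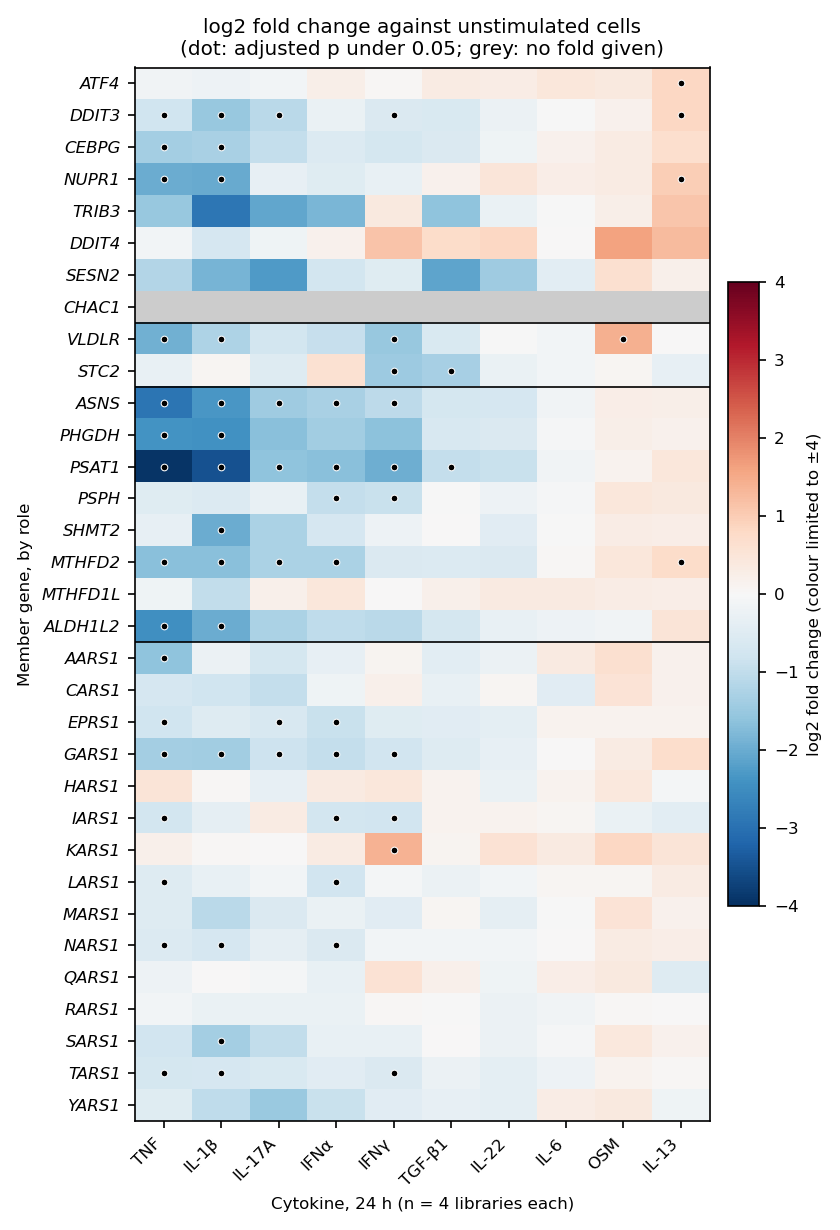
Log2 fold change against unstimulated cells (colour, limited to ±4) for the 33 tested members (vertical axis, by role) with each of 10 cytokines (horizontal axis, 4 libraries per group), with a dot at an adjusted p under 0.05 and CHAC1 in grey because it had 0 counts in every unstimulated library. The 16 dots of TNF and 14 of IL-1β all lie on blue, lower values, and the 4 dots of IL-13 on red, higher values.

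CHAC1, which encodes an enzyme that degrades glutathione, had 0 counts in all 4 unstimulated libraries, so its fold changes depend on a prior count and it is left out of the medians. Over the other 32 tested members the median log2 fold change was -0.72 with TNF and -1.0 with IL-1β, where the medians of all genes tested were -0.02 and -0.01. It was -0.67 with IL-17A, -0.56 with IFNα, -0.46 with IFNγ, -0.28 with TGF-β1 and -0.24 with IL-22. It was 0.24 with IL-13 and 0.32 with OSM, and 0.00 with IL-6. With CHAC1 set at the bound given by 3 counts over the unstimulated group, the medians were -0.69 with TNF, -0.97 with IL-1β and 0.25 with IL-13. The log2 fold change was below 0 for 30 of 32 members with TNF and above 0 for 30 of 32 with OSM.

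The largest called differences were among the enzymes of amino acid and one-carbon synthesis. TNF lowered 5 of the 8 tested, IL-1β 6, IFNα 4, IFNγ 3, IL-17A 3 and TGF-β1 1, and IL-13 raised 1. The median log2 fold change of the 8 was -2.02 with TNF, -2.0 with IL-1β, -1.14 with IFNα and -0.98 with IFNγ.

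PSAT1 encodes phosphoserine aminotransferase, the middle enzyme of the pathway that makes serine from a glycolytic intermediate. Unstimulated libraries held 206, 195, 86.5 and 113 CPM. TNF libraries held 7.77, 16.4, 8.25 and 8.03 CPM and IL-1β libraries 12.1, 11.9, 15.9 and 14.3 CPM. All 8 values lay far below every unstimulated value. PSAT1 fell 15.1-fold with TNF (log2 fold change -3.92 ± 0.36, adjusted p = 4.15e-11). It fell 11.1-fold with IL-1β (-3.47 ± 0.35, adjusted p = 3.43e-10).

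PSAT1 was also lower with 4 other cytokines. In IFNγ libraries it was at 69.3, 29.9, 23.4 and 32.8 CPM (-1.94 ± 0.32, adjusted p = 1.35e-05). In IFNα libraries it was at 76.0, 46.7, 36.5 and 29.3 CPM (-1.66 ± 0.31, adjusted p = 9.61e-05). In IL-17A libraries it was at 31.1, 57.7, 52.1 and 55.7 CPM (-1.62 ± 0.31, adjusted p = 0.00198). None of these groups overlapped the unstimulated one. In TGF-β1 libraries, at 109, 91.5, 67.1 and 41.1 CPM, the groups overlapped and the difference was smaller (-0.96 ± 0.30, adjusted p = 0.0467). That call was lost without unstimulated replicate 1 or 2 or TGF-β1 replicate 2, 3 or 4 (adjusted p up to 0.178), with DESeq2 size factors, with a minimum of 10 counts in 4 libraries, with the GC offset and in the 8 libraries alone.

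ASNS, which makes asparagine from aspartate and carries the element shown above, had 126, 154, 102 and 122 CPM in unstimulated libraries. With TNF it was at 22.6, 14.6, 18.8 and 11.2 CPM, a 7.52-fold fall (-2.91 ± 0.32, adjusted p = 4.16e-09). With IL-1β it was at 20.2, 23.2, 21.6 and 35.7 CPM, a 5.01-fold fall (-2.33 ± 0.30, adjusted p = 2.29e-07). Neither group came near the lowest unstimulated value. ASNS also fell with IL-17A to 59.4, 42.1, 51.3 and 36.2 CPM (-1.41 ± 0.29, adjusted p = 0.00395). With IFNα it fell to 63.4, 57.3, 41.3 and 40.5 CPM (-1.31 ± 0.29, adjusted p = 0.000994). The IFNγ libraries were spread out, at 83.6, 93.0, 17.3 and 49.1 CPM, all below the unstimulated range. This fall (-1.05 ± 0.29, adjusted p = 0.0112) was not called without IFNγ replicate 3 or 4 or in the 8 libraries alone (adjusted p up to 0.155).

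MTHFD2 is a mitochondrial enzyme of the folate cycle that hands on the one-carbon unit released from serine. It had 179, 247, 106 and 150 CPM in unstimulated libraries. With TNF it was at 62.1, 60.3, 52.5 and 40.2 CPM (-1.67 ± 0.22, adjusted p = 2.75e-07). With IL-1β it was at 43.9, 51.7, 54.6 and 66.2 CPM (-1.66 ± 0.22, adjusted p = 2.89e-07). The ranges of the TNF and IL-1β values overlapped each other and lay below the unstimulated one. With IFNα it was at 62.8, 96.8, 61.2 and 61.6 CPM (-1.27 ± 0.22, adjusted p = 2.35e-05). With IL-17A it was at 58.4, 101, 68.9 and 58.0 CPM (-1.26 ± 0.22, adjusted p = 0.000541). These groups too lay below the unstimulated libraries.

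MTHFD2 was the only enzyme called with IL-13, rising to 283, 305, 280 and 258 CPM, all above the unstimulated libraries (0.73 ± 0.21, adjusted p = 0.0346). The call was lost without unstimulated replicate 1, 3 or 4 or IL-13 replicate 1 or 2 and in the 8 libraries alone (adjusted p up to 0.117). The log2 fold changes of the 8 tested enzymes were all above 0 with IL-13, with a median of 0.33.

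PSPH encodes the phosphatase of the last step of serine synthesis. It had 52.4, 56.1, 50 and 35.5 CPM in unstimulated libraries. In IFNα libraries it was at 28.1, 20.4, 28.6 and 23.0 CPM (-0.95 ± 0.20, adjusted p = 0.000518). With IFNγ it was at 23.4, 29.1, 26.0 and 25.6 CPM (-0.90 ± 0.20, adjusted p = 0.00158). Both interferon groups lay wholly below the unstimulated group. Both calls were lost when all genes with any count were tested (adjusted p = 0.0513 with IFNα and 0.0864 with IFNγ), and that with IFNγ also in the 8 libraries alone.

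ALDH1L2, the mitochondrial enzyme that oxidises formyl-tetrahydrofolate, was at 27.9, 40.1, 35.2 and 17.8 CPM in unstimulated libraries. In TNF libraries it was at 9.88, 1.72, 5.25 and 4.82 CPM (-2.44 ± 0.48, adjusted p = 0.000278). In IL-1β libraries it was at 7.06, 14.6, 3.18 and 5.19 CPM (-2.0 ± 0.46, adjusted p = 0.00241). The groups did not overlap.

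PHGDH, the first enzyme of serine synthesis, varied widely between the unstimulated libraries, at 36.2, 14.6, 1.41 and 11.6 CPM. TNF libraries had 5.65, 1.72, 4.50 and 0.536 CPM (-2.38 ± 0.73, adjusted p = 0.0247). IL-1β libraries had 4.54, 0.663, 5.08 and 1.30 CPM (-2.42 ± 0.72, adjusted p = 0.0261). Both groups overlapped unstimulated replicate 3. Without unstimulated replicate 1 neither call held (adjusted p = 0.189 with TNF and 0.254 with IL-1β), and each was also lost without replicate 2 or 4 of its cytokine group and in the 8 libraries alone.

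SHMT2, the mitochondrial enzyme that splits serine into glycine, is given here after its values were seen. It fell with IL-1β, from 42.1, 26.2, 9.15 and 19.1 CPM to 8.58, 3.31, 8.26 and 3.89 CPM (-1.99 ± 0.57, adjusted p = 0.0204). The call was lost without unstimulated replicate 1 or IL-1β replicate 2 or 4 (adjusted p up to 0.131).

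**Figure D2:**
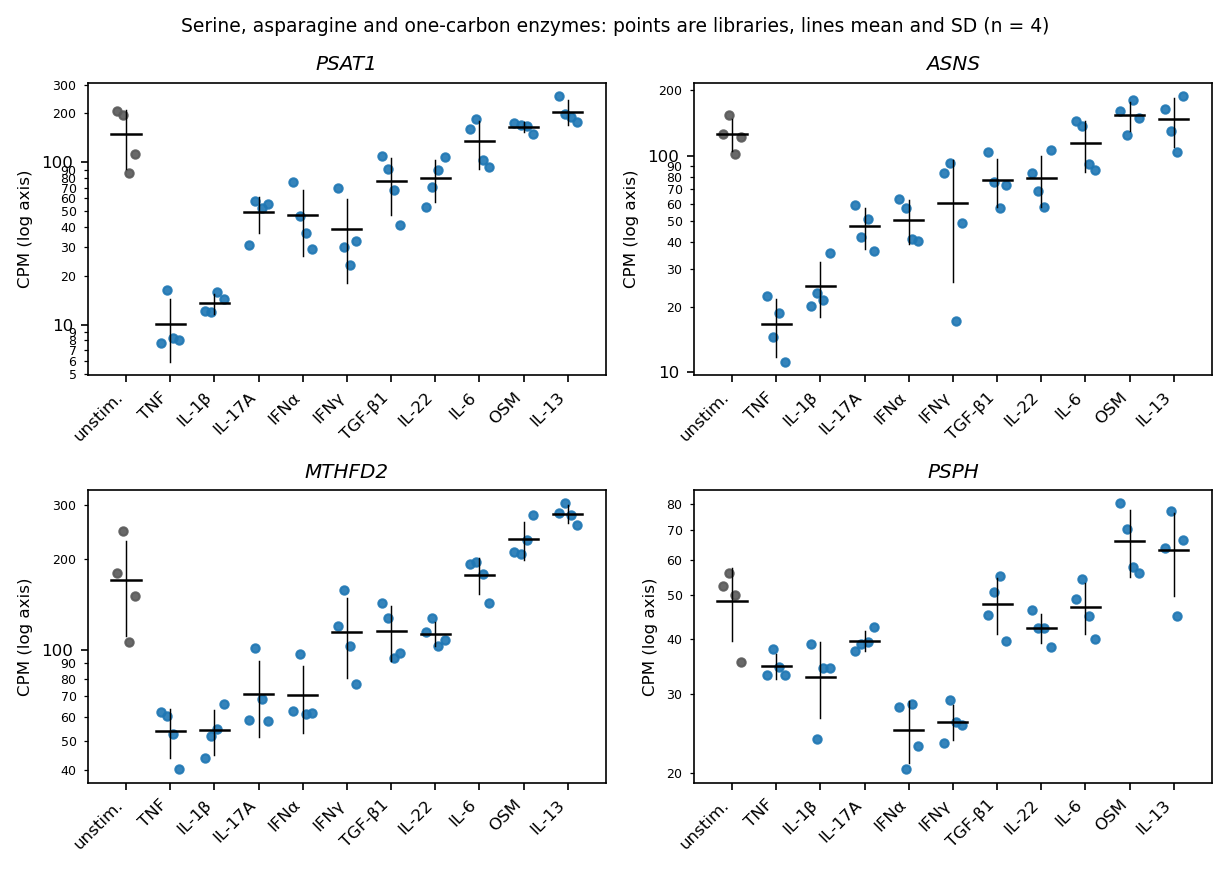
CPM of PSAT1, ASNS, MTHFD2 and PSPH (vertical axes, log scale) in each of the 44 libraries by group (horizontal axis), with unstimulated cells in grey, and lines for the mean and SD of 4 libraries. PSAT1 lies at 7.77 to 16.4 CPM with TNF and at 86.5 to 206 CPM in unstimulated cells, and PSPH is lowest with IFNα and IFNγ.

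Among the 8 stress regulators, 3 fell with TNF and with IL-1β, 1 with IFNγ and with IL-17A, and 3 rose with IL-13. ATF4, the central transcription factor of the response, had 48.5, 43.7, 60.5 and 46.4 CPM in unstimulated libraries. With TNF it was at 29.7, 52.5, 63.8 and 34.8 CPM and with IL-1β at 43.9, 37.8, 38.8 and 53.2 CPM. These ranges overlapped the unstimulated one. The log2 fold change with TNF was -0.15 with a 95% interval of -0.59 to 0.29 (adjusted p = 0.76). The falls of PSAT1 and ASNS with TNF, both known targets of ATF4, thus stood beside no called fall of ATF4 mRNA.

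With IL-13, ATF4 rose to 79.7, 88.8, 90.0 and 92.4 CPM, above every unstimulated library (0.82 ± 0.21, adjusted p = 0.017). The call was lost without unstimulated replicate 2 or 4 and when all genes with any count were tested (adjusted p up to 0.12).

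DDIT3 encodes CHOP, a C/EBP-type factor downstream of ATF4 that is linked to cell death under prolonged stress. It had 122, 132, 122 and 107 CPM in unstimulated libraries, a narrow range. The IL-1β values were 35.3, 31.2, 46.4 and 57.1 CPM (-1.51 ± 0.21, adjusted p = 5.31e-07). In IL-17A libraries it was at 62.1, 57.7, 49.7 and 58.6 CPM (-1.08 ± 0.20, adjusted p = 0.00168). The TNF values were 61.4, 47.4, 77.3 and 86.8 CPM (-0.81 ± 0.20, adjusted p = 0.00377). These 3 groups lay wholly below the unstimulated one.

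With IL-13 DDIT3 rose to 217, 195, 235 and 207 CPM, again without overlap (0.82 ± 0.19, adjusted p = 0.0072). In IFNγ libraries it was at 81.3, 92.2, 81.5 and 64.8 CPM (-0.59 ± 0.20, adjusted p = 0.0452). The IFNγ call was lost without unstimulated replicate 1, 2 or 3 or IFNγ replicate 1, 3 or 4, with DESeq2 size factors, with all genes with any count and in the 8 libraries alone (adjusted p up to 0.167).

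NUPR1, a small stress-induced chromatin protein, was at 776, 752, 810 and 613 CPM in unstimulated libraries. It fell to 267, 210, 160 and 108 CPM with TNF (-1.99 ± 0.25, adjusted p = 5.41e-08). It fell to 227, 201, 171 and 134 CPM with IL-1β (-2.01 ± 0.24, adjusted p = 5.41e-08). In IL-13 libraries it was at 1330, 1400, 1490 and 1540 CPM, above all unstimulated values (0.97 ± 0.24, adjusted p = 0.00998). Without unstimulated replicate 4 the IL-13 call narrowly missed the threshold (adjusted p = 0.0521).

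CEBPG, a dimer partner of ATF4, was at 66.1, 53.9, 36.6 and 39.6 CPM in unstimulated libraries. With TNF it was at 21.9, 10.3, 12.8 and 29.5 CPM (-1.37 ± 0.34, adjusted p = 0.00377). With IL-1β it was at 27.2, 11.9, 22.9 and 16.9 CPM (-1.31 ± 0.33, adjusted p = 0.0071). Neither group overlapped the unstimulated libraries.

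The other regulators had few counts. TRIB3, a pseudokinase that restrains ATF4, had 0 to 24 counts in a library, the leucine sensor SESN2 0 to 27, and DDIT4, an inhibitor of the growth kinase mTORC1, 4 to 85. None of them was called in a comparison with unstimulated cells, while TRIB3 and DDIT4 were called in the test over 11 groups. In IL-13 libraries CHAC1 had 12, 17, 31 and 0 counts, against 0 in each unstimulated library. CHAC1 was detected in 2 or 3 of 4 libraries in several other groups too, such as TNF with 13, 0, 22 and 6 counts, so the libraries of a group did not move together.

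**Figure D3:**
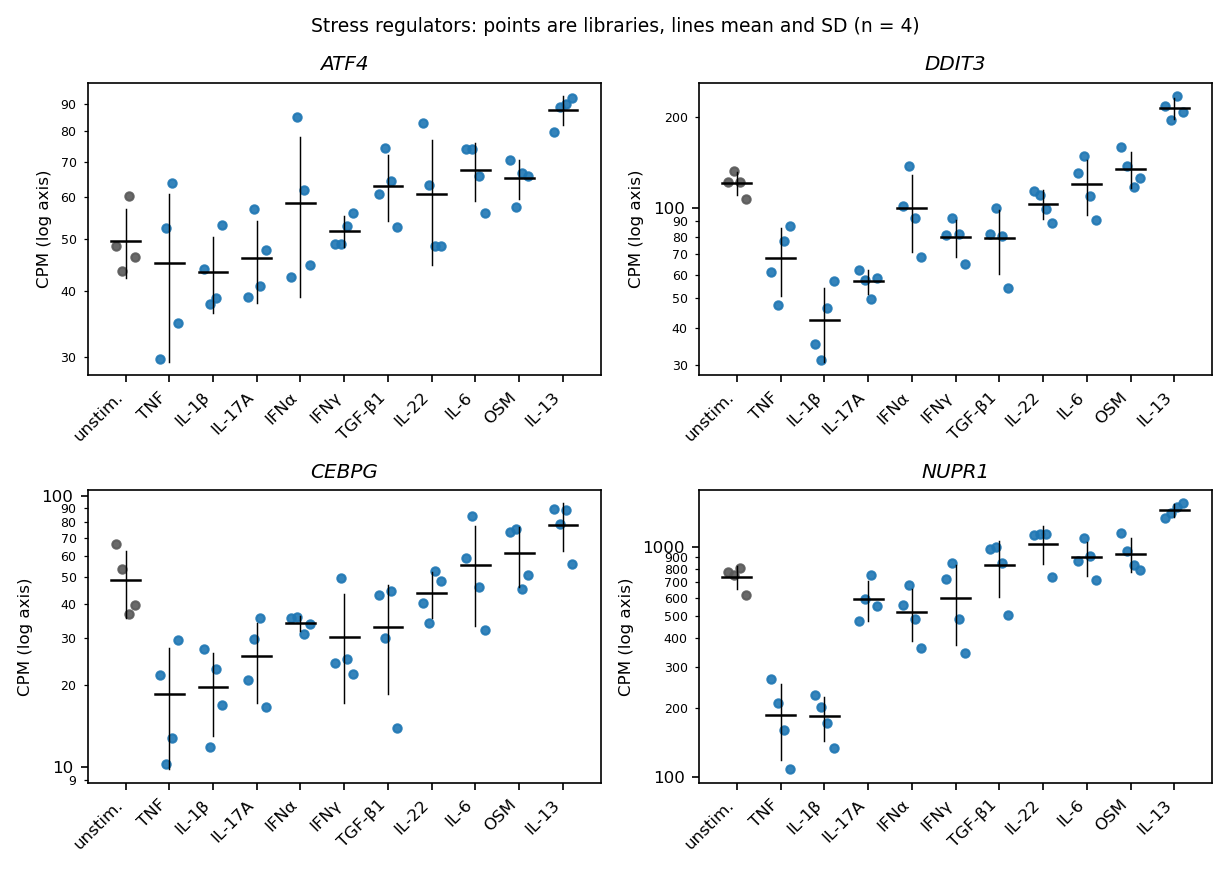
CPM of ATF4, DDIT3, CEBPG and NUPR1 (vertical axes, log scale) in each library by group (horizontal axis), with unstimulated cells in grey, and lines for the mean and SD of 4 libraries. With IL-13, DDIT3 lies at 195 to 235 CPM and NUPR1 at 1330 to 1540 CPM, above all unstimulated libraries, while both are below them with TNF and IL-1β.

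VLDLR, a lipoprotein receptor known as an ATF4 target, had 35.3, 37.2, 29.6 and 19.1 CPM in unstimulated libraries. It rose with OSM to 74.3, 102, 80.1 and 70.9 CPM (1.43 ± 0.36, adjusted p = 0.0139). It fell with TNF to 4.24, 8.61, 5.25 and 13.4 CPM (-1.91 ± 0.41, adjusted p = 0.000828). The OSM and TNF libraries lay on opposite sides of all unstimulated ones. The OSM call was lost without unstimulated replicate 4 or OSM replicate 2 (adjusted p up to 0.0782).

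VLDLR was also lower with IFNγ, at 10.5, 21.6, 4.33 and 5.70 CPM (-1.52 ± 0.40, adjusted p = 0.00841), where 1 library overlapped the unstimulated range. In IL-1β libraries it was at 10.6, 16.6, 11.4 and 13.0 CPM (-1.23 ± 0.39, adjusted p = 0.0384). The IFNγ call was lost without IFNγ replicate 3 or 4 and in the 8 libraries alone (adjusted p up to 0.105). The IL-1β call was lost without unstimulated replicate 1, 2 or 3 or IL-1β replicate 1, 3 or 4 and with all genes with any count (adjusted p up to 0.119).

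STC2, a secreted glycoprotein induced by stress, was at 79.3, 67.8, 42.2 and 29.4 CPM in unstimulated libraries. It was at 25.6, 10.8, 19.1 and 24.2 CPM with IFNγ, below all of them (-1.45 ± 0.37, adjusted p = 0.00649). With TGF-β1 it was at 24.2, 27.6, 29.9 and 6.60 CPM (-1.33 ± 0.37, adjusted p = 0.0233). The TGF-β1 group overlapped the lowest unstimulated library, and its call was lost without unstimulated replicate 1 or 2, without TGF-β1 replicate 4 and in the 8 libraries alone (adjusted p up to 0.138).

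The cytosolic synthetases had median differences closer to 0 than the enzymes had with TNF, IL-1β, IL-17A, IFNα and IFNγ. Of the 15 tested, 7 fell with TNF, 5 with IFNα, 4 with IL-1β, 3 with IFNγ and 2 with IL-17A. With IL-13, OSM, TGF-β1, IL-22 and IL-6 none was called. The median log2 fold change of the 15 was -0.56 with TNF, -0.52 with IL-1β, -0.59 with IL-17A, -0.34 with IFNα and -0.10 with IFNγ, and 14 of the 15 were above 0 with OSM, where the median was 0.38.

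GARS1, the glycyl-tRNA synthetase of cytosol and mitochondria, was lower with the most cytokines among the synthetases. It had 215, 211, 184 and 143 CPM in unstimulated libraries. IL-1β libraries had 60.0, 86.8, 64.8 and 75.9 CPM (-1.39 ± 0.23, adjusted p = 2.12e-05). In TNF libraries it was at 83.3, 81.8, 65.3 and 62.7 CPM (-1.37 ± 0.23, adjusted p = 2.89e-05). IFNα libraries had 98.6, 124, 100 and 71.0 CPM (-0.94 ± 0.23, adjusted p = 0.00296). Each of these groups lay below the lowest unstimulated library.

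GARS1 was lower with IL-17A too, at 94.1, 99.1, 151 and 83.3 CPM (-0.82 ± 0.23, adjusted p = 0.0462). IFNγ libraries had 127, 155, 72 and 92.6 CPM (-0.76 ± 0.23, adjusted p = 0.0217). In both, 1 library overlapped the unstimulated range. The IL-17A call was lost without unstimulated replicate 1, 2 or 3 or IL-17A replicate 1, 2 or 4 and in the 8 libraries alone (adjusted p up to 0.179). The IFNγ call was lost without unstimulated replicate 1 or 2 or IFNγ replicate 3 or 4 and in the 8 libraries alone (adjusted p up to 0.131).

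NARS1, the asparaginyl-tRNA synthetase, was at 372, 332, 281 and 323 CPM in unstimulated libraries. The IL-1β values were 238, 151, 216 and 224 CPM (-0.66 ± 0.14, adjusted p = 0.000777). The IFNα values were 212, 220, 237 and 200 CPM (-0.59 ± 0.14, adjusted p = 0.00196). TNF libraries had 205, 195, 220 and 265 CPM (-0.56 ± 0.14, adjusted p = 0.00341). None of the 3 groups overlapped the unstimulated one. When all genes with any count were tested, the calls with IFNα (adjusted p = 0.0539) and TNF were lost, the latter also in the 8 libraries alone (adjusted p up to 0.0808).

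EPRS1, which joins both glutamate and proline to their transfer RNAs, had 419, 553, 294 and 343 CPM in unstimulated libraries. It fell with IFNα to 235, 260, 195 and 180 CPM (-0.89 ± 0.17, adjusted p = 0.000208). It fell with TNF to 177, 237, 266 and 239 CPM (-0.81 ± 0.17, adjusted p = 0.000826). Both groups lay wholly below the unstimulated one. IL-17A libraries had 276, 250, 272 and 239 CPM (-0.64 ± 0.17, adjusted p = 0.0426), a call that was lost without unstimulated replicate 1 or 2 or any of the 4 IL-17A libraries, with all genes with any count, with the GC offset and in the 8 libraries alone (adjusted p up to 0.328).

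IARS1, the isoleucyl-tRNA synthetase, was at 525, 612, 585 and 704 CPM in unstimulated libraries. The IFNγ values were 349, 475, 292 and 318 CPM (-0.76 ± 0.15, adjusted p = 0.000425). The TNF values were 396, 441, 323 and 297 CPM (-0.74 ± 0.15, adjusted p = 0.000524). With IFNα it was at 314, 389, 429 and 346 CPM (-0.72 ± 0.15, adjusted p = 0.000648). The 12 values were all below the unstimulated range. In the 8 libraries alone the IFNγ call was lost (adjusted p = 0.0675).

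LARS1, the leucyl-tRNA synthetase, was at 233, 276, 205 and 178 CPM in unstimulated libraries. In IFNα libraries it was at 142, 142, 119 and 125 CPM (-0.76 ± 0.16, adjusted p = 0.000825). With TNF it was at 129, 166, 164 and 159 CPM (-0.53 ± 0.16, adjusted p = 0.0247). Neither group overlapped the unstimulated one. The TNF call was lost without unstimulated replicate 2 or TNF replicate 1, in the 8 libraries alone, with all genes with any count and with an offset for GC content (adjusted p up to 0.176).

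TARS1, the threonyl-tRNA synthetase, was at 229, 269, 229 and 168 CPM in unstimulated libraries. In TNF libraries it was at 120, 120, 140 and 175 CPM (-0.69 ± 0.18, adjusted p = 0.00652) and with IL-1β at 160, 148, 140 and 115 CPM (-0.67 ± 0.18, adjusted p = 0.0109). With IFNγ it was at 148, 147, 129 and 174 CPM (-0.58 ± 0.18, adjusted p = 0.0264). Only the IL-1β group of these 3 lay wholly below the unstimulated one. The TNF call was lost in the 8 libraries alone (adjusted p = 0.0552), and the IL-1β call without unstimulated replicate 2 or IL-1β replicate 4 and with all genes with any count (adjusted p up to 0.0731). The IFNγ call was lost without unstimulated replicate 2 or 3 or IFNγ replicate 1, 2 or 3, with the GC offset, with all genes with any count and in the 8 libraries alone (adjusted p up to 0.161).

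The next 3 synthetases are given after their values were seen. KARS1, the lysyl-tRNA synthetase, was the only member called higher with IFNγ. It had 62.7, 60.5, 48.5 and 27.3 CPM in unstimulated libraries and 160, 101, 117 and 145 CPM with IFNγ, with no overlap (1.39 ± 0.27, adjusted p = 0.000231). Against the mean of the other 9 cytokines KARS1 was 2.08-fold higher with IFNγ, given as a description because KARS1 was picked for its level in these libraries. In that comparison 1 of 33 members was called higher, against 5.95% of all genes.

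AARS1, the alanyl-tRNA synthetase, fell with TNF from 23.0, 16.0, 14.1 and 17.1 CPM to 2.82, 6.03, 7.50 and 6.43 CPM (-1.62 ± 0.47, adjusted p = 0.0159). SARS1, the seryl-tRNA synthetase, fell with IL-1β from 274, 106, 123 and 106 CPM to 70.6, 36.5, 55.9 and 75.9 CPM (-1.35 ± 0.33, adjusted p = 0.00443). In both the groups did not overlap. The AARS1 call was lost without TNF replicate 1 (adjusted p = 0.0727) and the SARS1 call without unstimulated replicate 1 (adjusted p = 0.0974). The other synthetases, CARS1, HARS1, MARS1, QARS1, RARS1 and YARS1, were not called in any comparison with unstimulated cells.

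**Figure D4:**
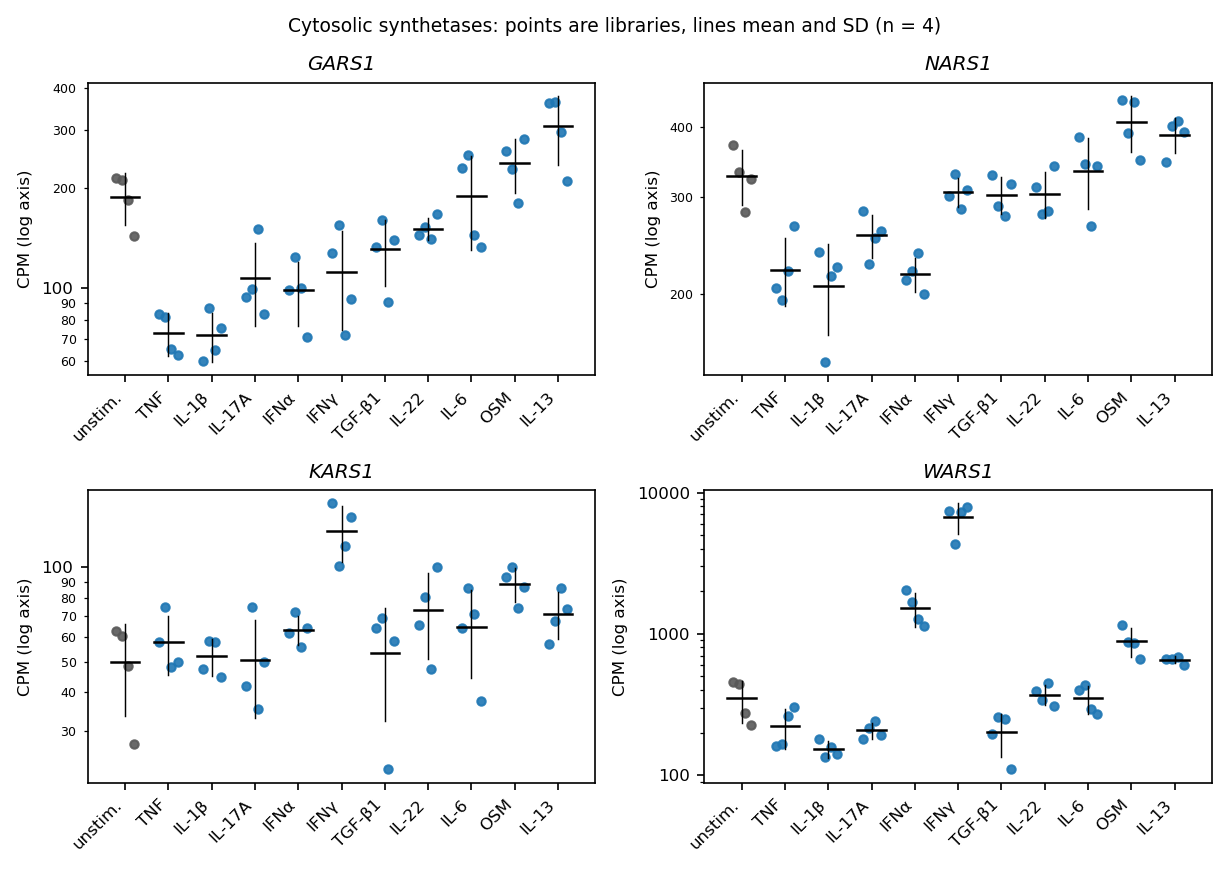
CPM of GARS1, NARS1, KARS1 and WARS1 (vertical axes, log scale) in each library by group (horizontal axis), with unstimulated cells in grey, and lines for the mean and SD of 4 libraries. GARS1 is at 60.0 to 86.8 CPM with IL-1β and at 143 to 215 CPM in unstimulated cells, and KARS1 and WARS1 are highest with IFNγ.

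WARS1, the tryptophanyl-tRNA synthetase, is known as an interferon-induced gene and is not among the 35 members. It was at 453, 443, 277 and 227 CPM in unstimulated libraries. With IFNγ it was at 7430, 4330, 7320 and 7930 CPM, 19.3-fold higher (4.27 ± 0.27, adjusted p = 5.22e-17). With IFNα it was at 2040, 1670, 1270 and 1140 CPM, 4.37-fold higher (2.13 ± 0.24, adjusted p = 4.23e-09). Every interferon library thus lay above every unstimulated one, while most members that moved with the interferons were lower. WARS1 was also higher with OSM (1.35 ± 0.24) and IL-13 (0.90 ± 0.24) and lower with IL-1β (-1.19 ± 0.24) and TGF-β1 (-0.79 ± 0.24). The IL-13 call of WARS1 was lost without unstimulated replicate 3 or 4, and its TGF-β1 call without unstimulated replicate 1 or 2 or TGF-β1 replicate 1 or 4, with DESeq2 size factors and in the 8 libraries alone (adjusted p up to 0.205).

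Other genes of the same pathways were counted as well. Of 7 tested genes of the other cytosolic synthetases and their complex, 0 were called with TNF and 1, WARS1, with IL-1β. Of 10 tested mitochondrial synthetases, RARS2, for arginine, was the only gene called with TNF (-0.89 ± 0.23) and with IL-1β (-0.83 ± 0.23). Of 13 tested genes for the eIF2 kinases, their phosphatase and other ATF4 partners, 0 were called with TNF or IL-1β, and the kinase gene EIF2AK2, an interferon-induced sensor of double-stranded RNA, was higher with IFNα (2.37 ± 0.24, adjusted p = 8.97e-11). EIF2AK4, which encodes the kinase GCN2 that senses unloaded transfer RNA, was higher with OSM (0.97 ± 0.27, adjusted p = 0.0261). The EIF2AK4 call was lost without unstimulated replicate 2 or 4 or OSM replicate 2, 3 or 4, in the 8 libraries alone and with all genes with any count (adjusted p up to 0.137), and that of RARS2 with IL-1β without replicate 2 of either group (adjusted p up to 0.067).

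Of 12 tested other genes of one-carbon and amino acid synthesis, MTHFD2L, a relative of MTHFD2 in mitochondria, was higher with IL-1β, from 1.47, 5.10, 3.52 and 2.05 CPM to 67.1, 47.7, 48.3 and 58.4 CPM (4.19 ± 0.67, adjusted p = 1.2e-05). In unstimulated replicates 1 and 4 its level corresponded to 3 counts, so the size of its fold changes is uncertain. TNF libraries had 16.2, 25.8, 33.8 and 18.7 CPM (2.96 ± 0.66, adjusted p = 0.00136). MTHFD2 and MTHFD2L thus moved in opposite directions with both cytokines. CTH, which makes cysteine, was lower with TNF (-2.02 ± 0.66, adjusted p = 0.0362), a call lost without unstimulated replicate 2, 3 or 4 or TNF replicate 1, 2 or 4, with all genes with any count, with the GC offset and in the 8 libraries alone (adjusted p up to 0.106). GCSH, of the glycine cleavage system, was lower with IFNα (-1.35 ± 0.23, adjusted p = 1.86e-05).

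TNF and IL-1β were compared directly to ask whether their falls differed. Of 33 members 0 were called by edgeR, against 0.452% of all genes higher and 0.694% lower with TNF, while DESeq2's Wald test called 1 and gave no adjusted p for 3. At an unadjusted p under 0.05, 3 were higher and 2 lower with TNF, a threshold at which the share of all genes was not counted. Without TNF replicate 2 or IL-1β replicate 4, 1 member was called. The log2 difference of TNF from IL-1β was -0.45 for PSAT1, with a 95% interval of -1.26 to 0.36. It was -0.58 for ASNS (-1.25 to 0.08), -0.01 for MTHFD2 (-0.46 to 0.44), 0.02 for NUPR1 (-0.47 to 0.51) and 0.69 for DDIT3 (0.28 to 1.11, adjusted p = 0.0922). TNF was given at 10 ng/ml and IL-1β at 0.1 ng/ml, so cytokine and dose cannot be told apart in these values.

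IFNα and IFNγ differed in 5 members, with 1 higher and 4 lower with IFNα, against 4.93% of all genes higher and 4.46% lower. STC2 was 4.2-fold higher with IFNα, at 98.6, 106, 65.9 and 66.6 CPM, than with IFNγ (2.07 ± 0.37, adjusted p = 0.000109). KARS1 was lower with IFNα, at 61.7, 71.8, 55.6 and 64.1 CPM (-1.05 ± 0.26, adjusted p = 0.00609). LARS1 (-0.69 ± 0.16), MTHFD2 (-0.69 ± 0.22) and NARS1 (-0.49 ± 0.14) were lower as well. The MTHFD2 call was lost without IFNα replicate 1, 3 or 4 or IFNγ replicate 1 or 2 (adjusted p up to 0.157), and it, LARS1 and NARS1 were not called in the 8 libraries alone, nor were MTHFD2 and NARS1 with all genes with any count. PSAT1, ASNS, PSPH, GARS1 and IARS1 were not called between the interferons.

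TGF-β1 and IL-13 differed in 10 members, with 9 lower and 1 higher with TGF-β1, against 6.39% of all genes lower and 6.05% higher. The 9 were DDIT3 (-1.44 ± 0.20, adjusted p = 7.79e-07), PSAT1 (-1.41 ± 0.30), MTHFD2 (-1.29 ± 0.21), CEBPG (-1.26 ± 0.33), GARS1 (-1.24 ± 0.23), ASNS (-0.92 ± 0.28), NUPR1 (-0.80 ± 0.24), EPRS1 (-0.59 ± 0.17) and LARS1 (-0.58 ± 0.16). The member higher with TGF-β1 was IARS1 (0.57 ± 0.15, adjusted p = 0.00843). The libraries of the groups did not overlap in any of these 10, but for ASNS the highest TGF-β1 and the lowest IL-13 library were both at 104 CPM after rounding. The share of all genes without overlap was not counted. The ASNS call was lost without IL-13 replicate 1 or 4 or TGF-β1 replicate 2, 3 or 4, NUPR1 without TGF-β1 replicate 4, EPRS1 without TGF-β1 replicate 3 or 4, and LARS1 without IL-13 replicate 4 (adjusted p up to 0.0956). EPRS1 and LARS1 were also not called with all genes with any count, and LARS1 in the 8 libraries alone.

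Each cytokine was also set against the mean of the other 9. With IL-13 16 of 33 members were called higher and 0 lower, against 7.21% of all genes higher. With OSM 18 of 33 were called higher and 0 lower, against 3.48% of all genes higher. Without OSM replicate 1 it was 10. With IL-6 7 of 33 were called higher and 0 lower, against 1.53% of all genes higher. TNF and IL-1β each had 13 members lower and 0 higher, against 4.94% and 3.7% of all genes lower. IFNα had 1 member higher and 6 lower, against 9.52% and 7.03% of all genes. IFNγ had 1 higher and 4 lower, against 5.95% and 3.67%. TGF-β1 had 1 higher and 1 lower, against 3.9% and 3.25%. IL-17A had 1 higher and 2 lower, against 2.43% and 1.8%. IL-22 had 2 higher and 0 lower, against 1.23% and 0.957%. The mean of the other 9 cytokines includes groups in which many members fell, so these counts are differences between cytokines and not from unstimulated cells.

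The members called higher than in unstimulated cells were picked for their level in these same IL-13 and OSM libraries, so their differences from the other cytokines are given as a description, with no test. With IL-13 MTHFD2 was 2.85-fold higher (1.51 ± 0.14), NUPR1 2.63-fold (1.39 ± 0.15), DDIT3 2.6-fold (1.38 ± 0.13) and ATF4 1.59-fold (0.67 ± 0.15). For DDIT3 and NUPR1 every IL-13 library lay above every library of the other 9 cytokines, for ATF4 and MTHFD2 not. VLDLR was 4.65-fold higher with OSM (2.22 ± 0.23), and all 4 OSM libraries lay above those of the other cytokines.

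GC-rich genes moved with several cytokines. Genes above the 80th and under the 20th percentile of GC content had median log2 fold changes of 0.31 and -0.17 with TNF, 0.38 and -0.26 with IFNγ, 0.26 and -0.22 with OSM and 0.02 and -0.03 with IL-1β. The tested members had a median GC content of 50.1%, against 45% for all genes tested. Most members called lower with TNF were nevertheless below that 45%. PSAT1, ASNS, MTHFD2, ALDH1L2, CEBPG, VLDLR, EPRS1, IARS1, LARS1, NARS1 and TARS1 lay at 40.97% to 43.34%. The other members called lower with TNF, GARS1, NUPR1, DDIT3, AARS1 and PHGDH, lay at 47.11% to 58.09%. With an offset for GC content 73 of the 77 calls of members in the comparisons with unstimulated cells and between cytokines held. Pseudogenes named after the members had at most 12 counts in a library (PSPHP1). The divergent transcript GARS1-DT had at most 40, and the antisense gene VLDLR-AS1 at most 13. Whether reads were assigned by strand is not given in the sources used here.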

How the data were processed

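For the 44 libraries the authors deposited estimated counts per gene symbol, made with kallisto (version 0.48.0) after read checks in FastQC (version 0.11.9) and in MultiQC (version 1.14), and not scaled for depth. Per the labels the build is hg38. The transcriptome release and the use of strand are not given in the sources used here. Doses are those of the labels and the study's methods, although a figure legend of the study gives another dose of IL-1β.

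Libraries were grouped by their titles. The estimated counts, of which 5.77% were not whole, were rounded. Of 40663 symbols, the 9513 kept by edgeR's filterByExpr (version 4.0.16, R 4.3.3) were normalized by TMM and fitted over all 44 libraries in 1 quasi-likelihood model with 1 coefficient per group. The adjusted p threshold was 0.05, without the study's limit of 1.5 on the absolute log2 fold change. The common biological coefficient of variation was 0.331, and 3 counts in a library corresponded to 1.39 to 3.85 CPM. The method was tested on simulated data. DESeq2 (version 1.42.0), other filters, size factors and fold limits, a replicate block, an offset for GC content and fits without each library were alternatives. The GC offset, and the alternatives for counts against the mean of the other 9 cytokines, were added after the data were seen.

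The members and lists were chosen with earlier results of these data known. Values by library are given for ATF4 and for members called in at least 1 comparison with unstimulated cells, at most 6 per role by the smallest p of the test over 11 groups; others so described are named as chosen after their values were seen. Of the other pathway genes, WARS1 and at most 3 called genes per comparison are named. Among the 66 pairs of replicates within groups, 0 had identical values and all differed by more than counting noise (chi-square per degree of freedom at least 3.26).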

Additional observations from a re-analysis of the deposited data

Results flagged for a closer look

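Among the 18 members with values by library, 198 groups of 4 libraries were examined for a library far from the other 3, and 8 were found, where about 9.9 would be expected by chance. NUPR1 was at 739 CPM in IL-22 replicate 4, below the 1120 to 1130 CPM of the other 3 libraries. CEBPG was at 49.8 CPM in IFNγ replicate 2, above the others at 22.1 to 25.1 CPM. VLDLR was at 20.8 CPM in IL-13 replicate 3, where the others had 32.9 to 34.0 CPM, and STC2 was at 23.1 CPM in IL-13 replicate 4, where the others had 47.3 to 51.8 CPM. PSAT1 reached 16.4 CPM in TNF replicate 2, against 7.77 to 8.25 CPM in the others, a value still far below every unstimulated library. MTHFD2 was at 96.8 CPM in IFNα replicate 2, with the others at 61.2 to 62.8 CPM. ALDH1L2 was at 11.5 CPM in IL-6 replicate 4, with the others at 30.3 to 32.7 CPM, and TARS1 at 162 CPM in IL-13 replicate 4, with the others at 246 to 262 CPM. The cause of these values was not tested.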

How the results depend on the processing

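Of 77 calls of single members, 43 held under every alternative except the fold limit, 34 were lost under at least 1 and 0 reversed. The fold limit was applied only to the counts of members called, given below. DESeq2's Wald test kept all 77 and DESeq2 size factors 75. Testing all genes with any count kept 62, the 8 libraries compared alone 56, and the GC offset 73. Fewer libraries leave fewer degrees of freedom, and more genes tested can raise the adjusted p, but why single calls were lost was not tested. Counts of members called were moved by over 1.5 times as follows. For TGF-β1 (2 called) it was 1 with DESeq2 size factors, 1 under a minimum of 10 counts in 4 or more libraries and 0 in the 8 libraries alone. For OSM (1) it was 3 with all genes with any count, 2 in the 8 libraries alone and 3 with DESeq2's Wald test. For IFNγ (10) it was 3 in the 8 libraries alone. For IFNα against IFNγ (5) it was 3 with all genes with any count and 2 in the 8 libraries alone. For TNF against IL-1β (0) it was 1 with all genes with any count and 1 with DESeq2's Wald test.

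With an absolute log2 fold change above 1.5 also required, 8 members were called with TNF, 8 with IL-1β, 1 with IFNα, 2 with IFNγ, 0 with TGF-β1, 0 with IL-13, 0 with OSM, 1 with IL-17A, 1 between IFNα and IFNγ and 0 between TGF-β1 and IL-13. Of all 9513 genes tested, 176 were then higher and 223 lower with TNF, and 140 and 124 with IL-1β. It was 234 and 145 with IFNα, 228 and 108 with IFNγ, and 61 and 101 with TGF-β1. It was 26 and 114 with IL-13, 51 and 73 with OSM, and 23 and 20 with IL-17A. Between IFNα and IFNγ it was 160 and 101, and between TGF-β1 and IL-13 261 and 198.

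Without 1 library, 14 to 17 members were called with TNF, 10 to 16 with IL-1β, 9 to 10 with IFNα, 5 to 11 with IFNγ (5 without IFNγ replicate 3), 0 to 3 with TGF-β1, 1 to 5 with IL-13 (1 without unstimulated replicate 4), 0 to 3 with OSM, 4 to 7 with IL-17A, 0 with IL-22 and 0 with IL-6. It was 24 to 27 among the 11 groups, 4 to 5 between the interferons, 0 to 1 between TNF and IL-1β and 7 to 10 between TGF-β1 and IL-13. Against the mean of the other 9 cytokines, 13 to 17 members were called higher with IL-13, 10 to 19 with OSM (10 without OSM replicate 1) and 1 with IFNγ.

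Libraries with the same replicate number had a median correlation of deviations from their group means of 0.0189, against -0.0069 for other pairs, so the numbers do not pair the samples. With the replicate number as a block, OSM had 2 members called, and all 77 calls of single members held. At 742173 to 2213424 counts per library, TRIB3, SESN2 and CHAC1 had at most 24, 27 and 31 counts and no call against unstimulated cells, while SHMT1 and VARS1 were not tested.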
